A study of Mus musculus with 3 samples.

Results

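The 34 genes described here encode proteins that copy DNA during S phase, repair it or package it, leaving aside the MCM helicase subunits. They were taken from a list of S-phase genes. All 34 were among the 19744 genes of the count tables, and all 34 symbols matched mouse gene names. Their messenger RNA was measured by Drop-seq, a droplet method that gives the 3' end of each captured transcript a cell barcode and a unique molecular identifier (UMI), in medulloblastomas of 3 mice. Medulloblastoma is a cerebellar tumour of childhood, and this form arises from granule neuron progenitors. The mice (G-Smo) carried hGFAP-Cre, a Cre driven by a human GFAP promoter that acts in neural stem and progenitor cells, with SmoM2, an always-active Smoothened receptor, on a C57BL/6 background. All 3 had received POx-palbo, a nanoparticle form of the CDK4/6 inhibitor palbociclib, by intraperitoneal injection at 25 mg/kg in 5 daily doses from postnatal day 10, and tumours were taken at postnatal day 16. The 3 tumours form 1 group, all of them treated. Untreated tumours are not analysed here, so nothing below shows an effect of the drug.

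In dividing cells, cyclin D with CDK4 or CDK6 phosphorylates the retinoblastoma protein, which frees E2F transcription factors to switch on genes for nucleotide supply, origin firing and DNA synthesis. Palbociclib blocks that kinase step. Granule neuron progenitors divide under Sonic hedgehog signalling and, when they leave the cycle, turn on the transcription factor Neurod1 and then neuronal genes. Mki67 and Top2a, which mark dividing cells, accumulate later in the cycle than most S-phase mRNAs and peak in G2 and mitosis.

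Many S-phase promoters are known to carry E2F sites, so the promoters of the 34 genes were read for the 8-base core in its 4 usual forms, TTTCCCGC, TTTCGCGC, TTTGCCGC and TTTGGCGC, on both strands of the 250 bases before the start (RefSeq, build GRCm38.p6). The forms TTTCGCGC and TTTGCCGC have the reverse complements GCGCGAAA and GCGGCAAA, and the other forms those seen in the sequences printed here. Of 26 members with a promoter entry, 6 (23.1%) held a match, against 583 of 27025 gene symbols (2.16%) and 262 of 5462 genes tested below (4.80%). Atad2, Ccne2, Exo1, Gins2, Gmnn, Rfc2, Tipin and Usp1 had no entry. The stretches around the 6 matches are printed 5' to 3' on the strand of the gene, because a larger share of members than of all genes tested holds this known S-phase element. Capitals mark the match.
Cdc6, chr11:98908002-98908031, plus strand: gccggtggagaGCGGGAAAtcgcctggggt
Cdca7, chr2:72476137-72476166, plus strand: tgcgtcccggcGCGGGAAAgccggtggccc
Dtl, chr1:191575545-191575592, minus strand: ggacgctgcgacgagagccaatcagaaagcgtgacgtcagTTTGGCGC
Hells, chr19:38930917-38930946, plus strand: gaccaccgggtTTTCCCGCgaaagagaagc
Pola1, chrX:93632246-93632333, minus strand: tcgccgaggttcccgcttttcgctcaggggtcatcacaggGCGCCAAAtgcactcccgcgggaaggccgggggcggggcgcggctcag
Uhrf1, chr17:56304088-56304175, plus strand: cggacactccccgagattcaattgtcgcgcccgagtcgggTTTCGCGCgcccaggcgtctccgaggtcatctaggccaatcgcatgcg
In Cdc6, Cdca7 and Pola1 the match lies as the reverse complement, and in Dtl it ends at the last base before the start. The Cdca7 and Hells stretches overlap an annotated exon. A match in these letters is a description of the sequence and does not show that a factor binds there, and the absence of a match says only that these letters are not in this window.

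The tables hold 8827, 2330 and 9802 barcodes with totals of 1150463, 248617 and 1324350 UMI counts in tumours 1, 2 and 3. Barcodes were shallow, with a median of 84 to 105 counts, and 1060, 148 and 1059 of them reached 200 counts. Tumour 2 stood apart, with 46315 counts in its barcodes of at least 200, against 466239 and 398419, and with 11.4% mitochondrial counts in its total against 3.97% and 5.61%. No barcode of at least 200 counts was shared between tumours, and 3 to 8 were shared by a pair of tumours among all barcodes. The tissue label was set beside marker genes. All 10 listed granule neuron progenitor genes (Atoh1, Gli1, Sfrp1 and others) had counts in each tumour, summing to 3298 to 3945 CPM (counts in 1000000). So did all 7 listed granule neuron genes, at 2788 to 3483 CPM. The largest means were those of Sfrp1 (1405 CPM) and Zic1 (1056 CPM) in the first list and Neurod1 (2124 CPM) in the second. Every listed myeloid, astrocyte and oligodendrocyte lineage gene had counts in each tumour too, so detection alone does not set the tissue apart. Myeloid markers summed to 617 to 660 CPM, astrocyte markers to 543 to 1006 CPM and oligodendrocyte lineage markers to 603 to 897 CPM. Each UMI stands for 1 captured 3' end, so levels were not scaled by gene length. How well each gene is captured was not measured, which limits comparison of CPM between genes.

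In the tumour totals the 34 genes together gave 46.3, 40.5 and 45.9 counts per 10000 in tumours 1, 2 and 3, a mean of 44.2 ± 3.21 (SD, n = 3). These totals rested on 5328, 1008 and 6073 member counts. In a total over many cells, fewer cells of a type and less RNA per cell cannot be told apart. The genes for chromatin and histone supply held the largest part of any role, 16.02, 13.3 and 16.1 per 10000, followed by those for synthesis at the fork, 11.1, 9.13 and 10.3 per 10000.

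Nasp, a chaperone that keeps newly made histone H3 available for replicating chromatin, was the most abundant member at 685, 459 and 726 CPM in tumours 1, 2 and 3. Tumour 2 lay below the other tumours, and its 95% Poisson interval of 378 to 551 CPM, which covers counting error only, did not reach theirs. Usp1, the protease that removes ubiquitin from PCNA and from the Fanconi protein FANCD2, followed at 307, 241 and 289 CPM. Hells, a chromatin remodeller needed for DNA methylation, gave 229, 314 and 251 CPM, with tumour 2 highest. Atad2, a bromodomain ATPase on new chromatin, gave 231, 249 and 199.3 CPM. Atad5, which takes PCNA off DNA after a stretch is copied, gave 203, 201 and 180 CPM and had the smallest spread of these 6 genes (SD 13.1 CPM around a mean of 195). Pcna, the sliding clamp of the polymerases, gave 206, 153 and 225 CPM. Its counts are uncertain, because the processed pseudogene Pcna-ps2 is listed separately with 128 counts and reads may have been split between them. The annotated copies Nasp-ps1 and Tyms-ps are not among the genes counted, and their part in the counts of Nasp and Tyms was not tested.

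The other 28 genes had means from 187 CPM for Ccne2, the E-type cyclin that opens S phase with CDK2, down to 27.8 CPM for Exo1, an exonuclease of mismatch repair. From Usp1 downward the range over tumours of each gene overlapped that of the next in order, so only Nasp stood clear of its neighbour. Among genes for nucleotide supply, Rrm2 and Rrm1 (the small and large subunits of ribonucleotide reductase) averaged 151 and 129 CPM, Tyms (thymidylate synthase) 147 CPM and Tk1 (thymidine kinase) 41.8 CPM. Origin genes were low apart from Ccne2: the Cdt1 inhibitor Gmnn averaged 79.4 CPM, the kinase Cdc7 78.0 CPM, the Cdt1-degrading adaptor Dtl 71.9 CPM, the helicase subunit Gins2 59.3 CPM, the MCM loader Cdc6 50.6 CPM and the helicase subunit Cdc45 34.7 CPM.

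**Figure D1:**
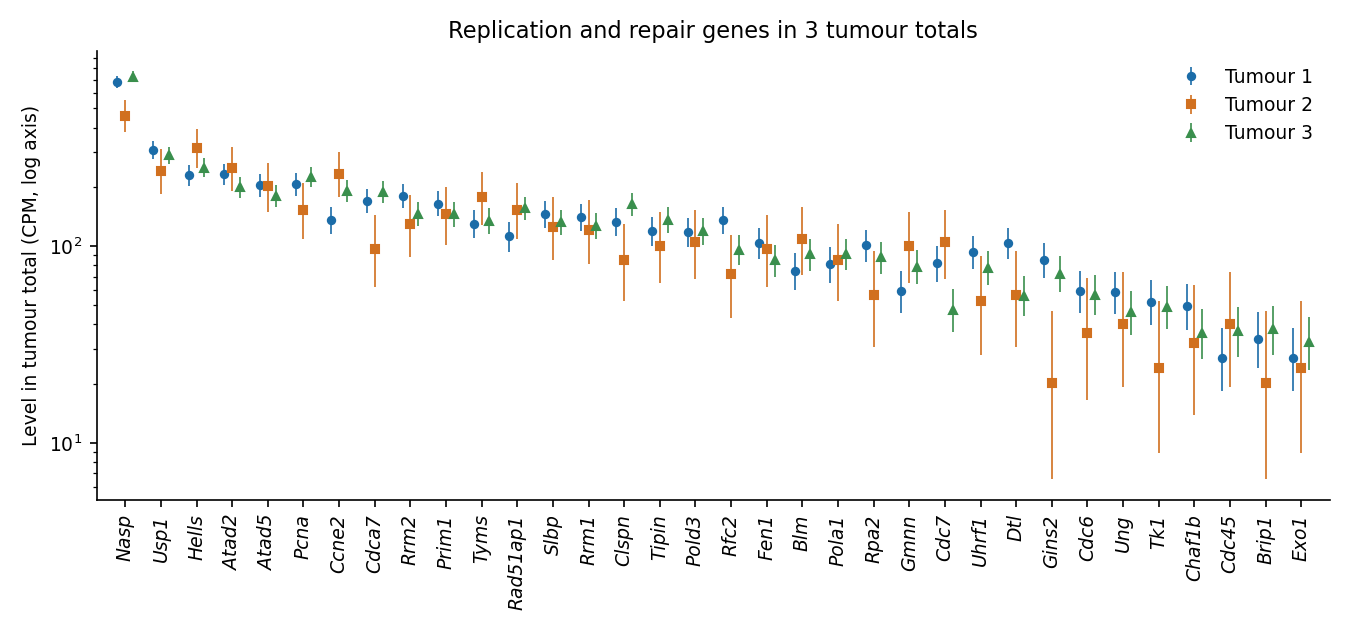
Level of each of the 34 genes in the totals of tumours 1, 2 and 3, in CPM on a log axis, ordered by the mean; bars are 95% Poisson intervals for counting error. Nasp lies above the rest at 459 to 726 CPM, and tumour 2, the smallest library, has the widest bars.

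Member mRNA was not confined to the deep barcodes. In barcodes of under 100 counts the 34 genes gave 43.7, 40.7 and 45.1 counts per 10000 in tumours 1, 2 and 3, and in those of 100 to under 200 counts 44.4, 38.9 and 42.8. In barcodes of 200 to under 500 counts they gave 48.0, 47.9 and 48.6, close together in all 3 tumours. At 500 counts or more tumours 1 and 3 gave 51.4 and 55.3, while tumour 2 gave 24.1 from only 22 member counts in 9 barcodes. Mki67 and Top2a changed more across the same bins, from 11, 11.9 and 14.4 per 10000 in the shallowest to 29.2, 23.0 and 33.0 in the deepest. Whether shallow barcodes are small cells or free RNA was not tested.

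**Figure D2:**
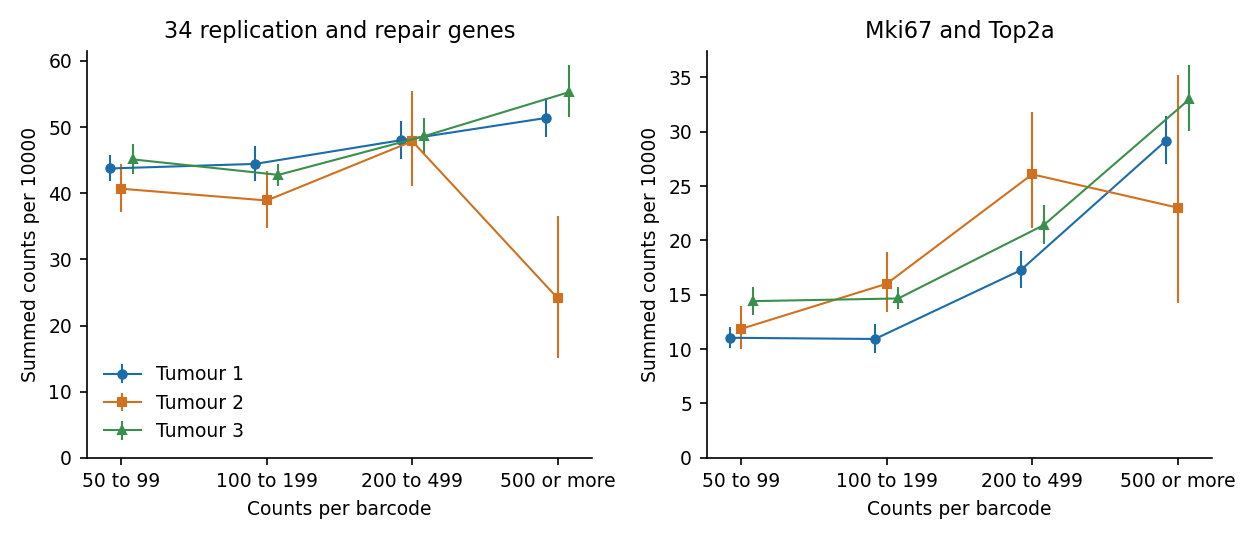
Summed counts per 10000 of the 34 genes (left) and of Mki67 and Top2a (right) in 4 classes of barcode depth, for tumours 1, 2 and 3; bars are 95% Poisson intervals. Members lie near 40 to 50 per 10000 below 500 counts per barcode, while Mki67 and Top2a reach 23.0 to 33.0 in the deepest class.

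Individual members did differ between deep and shallow barcodes, while as a set they lay near all genes. The median log2 ratio of deep to shallow was 0.19 over the members, with 64.7% above 0. Over 6964 tested genes it was 0.13, with 57.9% above 0. Summed over tumours, Cdc7 had 2.40 times, Pola1 (the catalytic subunit of the polymerase that starts each strand) 2.11 times, Brip1 (a helicase partner of BRCA1) 2.08 times and Atad5 2.04 times the CPM in barcodes of at least 200 counts that they had in the rest. Cdc7 and Brip1 lay higher in the deep barcodes of all 3 tumours, and Pola1 and Atad5 in those of 2. At the other end, Gmnn had 0.623 times, Tipin (the Timeless partner that steadies the fork) 0.638 times and Rfc2 (a clamp loader subunit) 0.684 times the CPM. Tipin and Rfc2 lay lower in the deep barcodes of all 3 tumours and Gmnn in those of 2. Genes with a long span in the annotation tended to have the higher ratio. Spearman's rho between gene span (GENCODE M21) and the log2 ratio was 0.61 over the 34 members and 0.37 over 6964 tested genes with a span, across genes that share the same 3 libraries. Gene span and ratio are given as a description; intronic reads were not measured here.

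**Figure D3:**
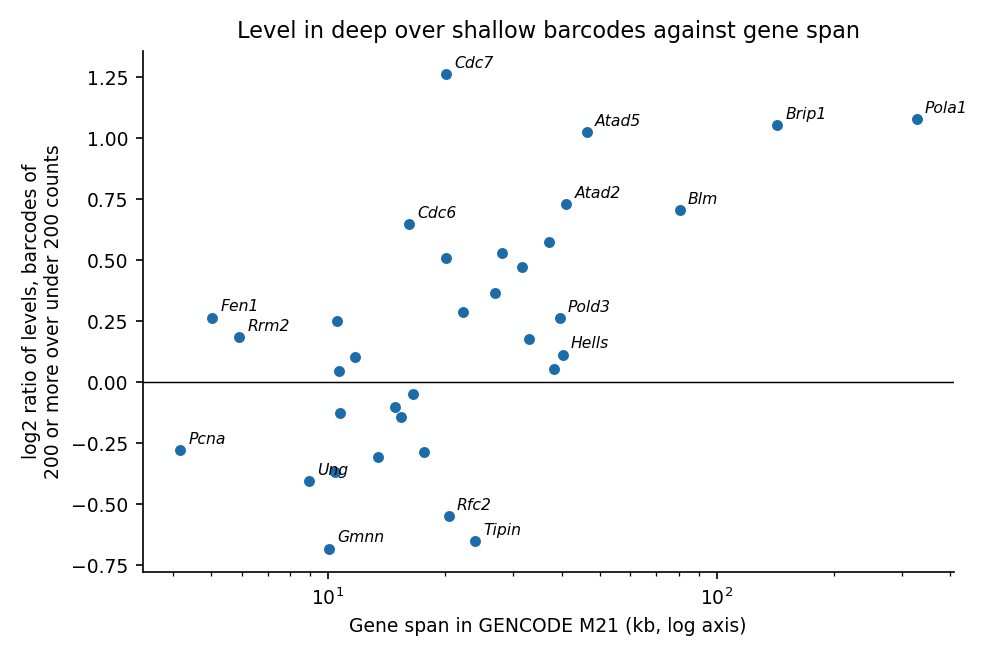
Log2 ratio of each member's CPM in barcodes of at least 200 counts to that in shallower ones, summed over 3 tumours, against gene span in kb on a log axis. Pola1, Brip1 and Atad5 lie high and to the right, and Gmnn and Pcna low and to the left.

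The barcodes of at least 200 counts were then split by at least 1 count of Mki67 or Top2a, and by at least 1 count of Neurod1, giving 4 classes per tumour. The split by Mki67 or Top2a asks which replication genes go with the marks of dividing cells, and the split by Neurod1 asks which go with the start of differentiation. Detection depends on depth: barcodes with a Mki67 or Top2a count had medians of 447, 274.5 and 359 counts in tumours 1, 2 and 3, against 318, 246.5 and 284 without one. No test used cells as replicates; counts were summed per tumour and class, and the 3 tumours were the replicates. The labels number the tumours and name no litter or batch.

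With classes set by all counts of a barcode, summed member mRNA was lowest in barcodes with Neurod1 alone, and in each tumour it was higher with Mki67 or Top2a than without. Barcodes with Neurod1 and neither of the other genes gave 26.7, 30.3 and 31.8 member counts per 10000 in tumours 1, 2 and 3. Those with none of the 3 genes gave 45.1, 42.2 and 45.7, above the Neurod1-only class in every tumour of this split. Barcodes with Mki67 or Top2a and no Neurod1 gave 72.2, 53.5 and 65.7, and those with both gave 55.2, 43.4 and 66.7. The ratio of barcodes with Mki67 or Top2a to those without was 1.77, 1.30 and 1.67, a mean of 1.58 ± 0.249 (SD, n = 3). When the classes were set by detection among 200 counts drawn from each barcode, which puts all barcodes at one depth for the split, the ratio was 1.58, 1.48 and 1.5, a mean of 1.52 ± 0.0548. The ratio of barcodes with Neurod1 to those without was 0.629, 0.788 and 0.820. With the drawn-count classes it was 0.578, 1.11 and 0.749, so tumour 2 turned direction, on 53 member counts in 41 barcodes with Neurod1. In those classes the barcodes with Neurod1 alone gave 29.1, 41.5 and 35.1 per 10000 and those with none of the 3 genes 47.3, 36.8 and 48.7, again with tumour 2 reversed. The class with both Neurod1 and Mki67 or Top2a then gave 42.8, 76.3 and 67.1, below the class with none of the genes in tumour 1. These values rest on only 54, 13 and 124 member counts in 30, 7 and 53 barcodes.

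**Figure D4:**
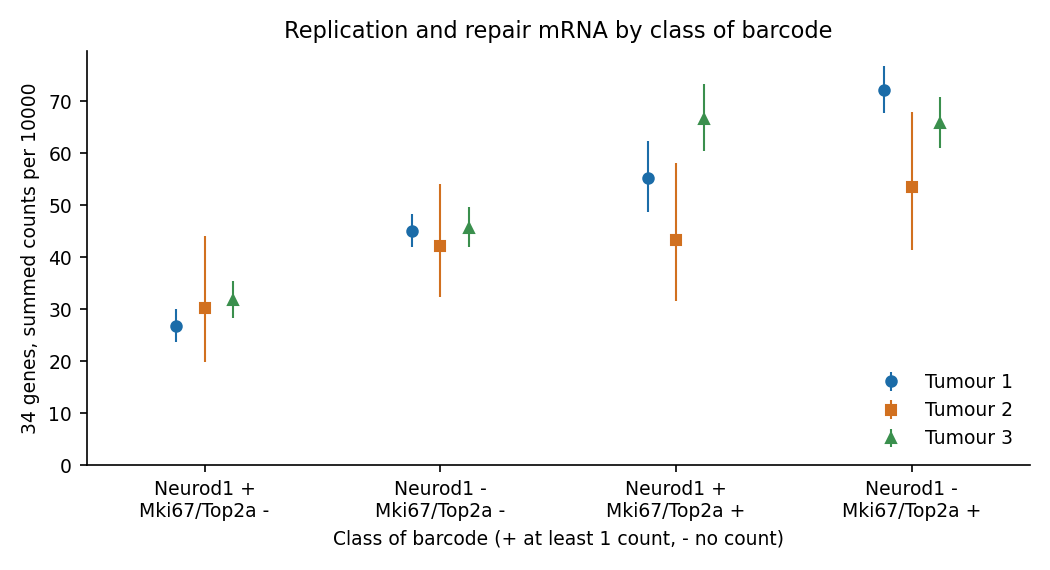
Summed counts of the 34 genes per 10000 counts in 4 classes of barcode of at least 200 counts, for tumours 1, 2 and 3; bars are 95% Poisson intervals. The class with Neurod1 alone lies between 26.7 and 31.8, below every tumour's value in each of the other 3 classes; with classes set at equal depth tumour 2 does not keep this order.

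The share of barcodes holding member mRNA followed the same split at equal depth. Among 200 counts drawn per barcode, 68.8%, 77.8% and 67.9% of barcodes with a Mki67 or Top2a count among those 200 held at least 1 member count, against 47.7%, 50.5% and 48.1% of those without. The difference was 22.8 ± 3.95 percentage points (SD, n = 3 tumours). All barcodes of at least 200 counts entered this comparison. Without thinning the shares were 85.1%, 82.8% and 81.4% against 59.1%, 53.3% and 58.8%. For Neurod1 the shares at 200 counts were 40.3%, 63.4% and 45.0% with it and 55.4%, 57.0% and 56.8% without, tumour 2 again going the other way. Barcodes called myeloid from their own markers, taken as a cell type outside the tumour lineage, held a member count in 3 of 15, 3 of 5 and 3 of 16 at 200 counts, with unthinned medians of 546, 465 and 525.5 counts. Their mean was 0.20, 0.80 and 0.19 member counts, against 1.39, 1.24 and 1.28 in barcodes with Mki67 or Top2a. In tumours 1 and 3 the myeloid shares were 20% (95% exact binomial interval 4.33 to 48.1) and 18.8% (4.05 to 45.7). The barcodes without Mki67 or Top2a lay above both shares, just inside the upper bound of the interval in tumour 1 and above it in tumour 3. In tumour 2 the 5 myeloid barcodes were too few to set a background.

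In the test across all genes, 9 of the 34 members were higher in barcodes with Mki67 or Top2a, none was lower and 25 did not pass (edgeR's quasi-likelihood test with tumour and the Neurod1 split in the model, Benjamini-Hochberg adjusted p under 0.05). Of all 7308 genes tested, 123 passed as higher (1.68%) and 61 as lower (0.835%). The log2 difference was above 0 for 30 of 34 members, with a median of 0.74, and above 0 for 46.4% of all genes, with a median of -0.04. All 34 members passed the filter on low counts, which looked at the sum over all classes. The p-values and SEs rest on a spread pooled over genes, so they do not measure a single gene's spread over the 3 tumours. Rrm2, Nasp and Rad51ap1 passed although tumour 2 was lower with Mki67 or Top2a. In 8 members, Tk1, Pola1, Gmnn, Clspn, Blm, Uhrf1, Prim1 and Rrm1, every tumour's CPM with Mki67 or Top2a lay above every tumour's CPM without, as it did in 4.93% of all genes tested. Tumour 2 had 0 counts of Tk1, Pola1, Gmnn and Clspn without Mki67 or Top2a, which allows up to 127 CPM. The 9 that passed came from 5 of 6 roles: 2 of 4 genes for nucleotide supply, 2 of 8 for synthesis at the fork, 1 of 2 for the fork checkpoint, 2 of 7 for chromatin and histone supply and 2 of 6 for repair, with 0 of 7 for origin licensing and firing.

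Among genes for nucleotide supply, Tk1, which makes dTMP from thymidine by the salvage route, had 111, 44.0 and 117 CPM in barcodes with Mki67 or Top2a of tumours 1, 2 and 3, against 10.5, 0 and 22.0 CPM in those without. The groups did not overlap, but tumour 2 held 1 count in all, and its count of 0 allows up to 127 CPM. The log2 difference was 2.78 (SE 0.57, edgeR adjusted p = 0.00015), the largest among the members. Rrm2, the cell-cycle regulated subunit of ribonucleotide reductase, had 288, 88.0 and 268 CPM against 108, 127 and 101 CPM. It lay higher in tumours 1 and 3 and lower in tumour 2, where 5 counts were seen, and the log2 difference was 1.31 (SE 0.31, edgeR adjusted p = 0.00184). Rrm1 and Tyms had log2 differences of 0.89 and 0.73 and did not pass.

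At the fork, Pola1 had 211, 132 and 274 CPM with Mki67 or Top2a, against 73.5, 0 and 52.8 CPM without. It was higher in all 3 tumours and the groups did not overlap, with a log2 difference of 1.91 (SE 0.36, edgeR adjusted p = 1.99e-05). Atad5 had 477, 176 and 344 CPM against 213, 170 and 220 CPM; tumour 2 gave 4 counts on each side, and the log2 difference was 0.88 (SE 0.25, edgeR adjusted p = 0.0266). Pcna, the most familiar S-phase marker of the list, had 161, 44.0 and 286 CPM against 147, 127 and 194 CPM. Its log2 difference was 0.29 (SE 0.30, edgeR adjusted p = 0.854), and the groups overlapped. The other 5 fork genes had log2 differences from 0.17 for Rfc2 to 0.92 for Prim1, the primase that works with Pola1, and did not pass.

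Clspn, the claspin adaptor that carries the stalled-fork signal from ATR to CHK1, had 266, 220 and 344 CPM against 112, 0 and 101 CPM. Every tumour was higher with Mki67 or Top2a, with a log2 difference of 1.53 (SE 0.31, edgeR adjusted p = 9.78e-05). Its partner in fork protection, Tipin, had a log2 difference of 0.40 and did not pass. In chromatin and histone supply, Atad2 had 454, 704 and 309 CPM against 245, 339 and 176 CPM, higher in all 3 tumours, with a log2 difference of 0.83 (SE 0.24, edgeR adjusted p = 0.0336). Nasp had 1103, 440 and 1086 CPM against 581, 593 and 696 CPM, higher in tumours 1 and 3 and lower in tumour 2. Its log2 difference was 0.69 (SE 0.18, edgeR adjusted p = 0.00721).

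Hells and its activator Cdca7 had differences near 0. Hells had 283, 352 and 216 CPM with Mki67 or Top2a against 301, 170 and 225 CPM without, a log2 difference of -0.005 (SE 0.25), and Cdca7 had 0.009 (SE 0.32). Chaf1b, a subunit of the histone-depositing CAF-1 complex, had -0.03 (SE 0.54). Slbp, which binds the stem-loop of histone mRNAs, had 0.91, and Uhrf1, which brings DNMT1 to new DNA, had 1.00; neither passed.

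Among repair genes, Blm, the Bloom helicase, had 205, 132 and 163 CPM against 66.5, 127 and 66.1 CPM. The groups did not overlap, although tumour 2 had 3 counts on each side, and the log2 difference was 1.32 (SE 0.38, edgeR adjusted p = 0.0235). Rad51ap1, a factor of homologous recombination, had 183, 88.0 and 239 CPM against 80.5, 212 and 79.3 CPM. Tumour 2 went the other way on 7 counts, and the log2 difference was 1.12 (SE 0.35, edgeR adjusted p = 0.0461). Usp1 had 427, 220 and 397 CPM against 266, 84.8 and 225 CPM, higher in each tumour, with a log2 difference of 0.75 (SE 0.24) that did not pass (edgeR adjusted p = 0.0754). Brip1, Ung (which removes uracil from DNA) and Exo1 had log2 differences of 0.86, 0.94 and -0.24 with SEs of 0.53 to 0.66.

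No origin gene passed. Gmnn came nearest, with 83.1, 220 and 75.9 CPM against 7.0, 0 and 52.8 CPM and a log2 difference of 1.69 (SE 0.53, edgeR adjusted p = 0.0539). Cdc45 had 0.82, Cdc7 0.48, Dtl 0.44, Ccne2 0.33, Cdc6 0.24 and Gins2 -0.06 on the log2 scale. The SEs of these 6 differences ran from 0.32 to 0.57.

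**Figure D5:**
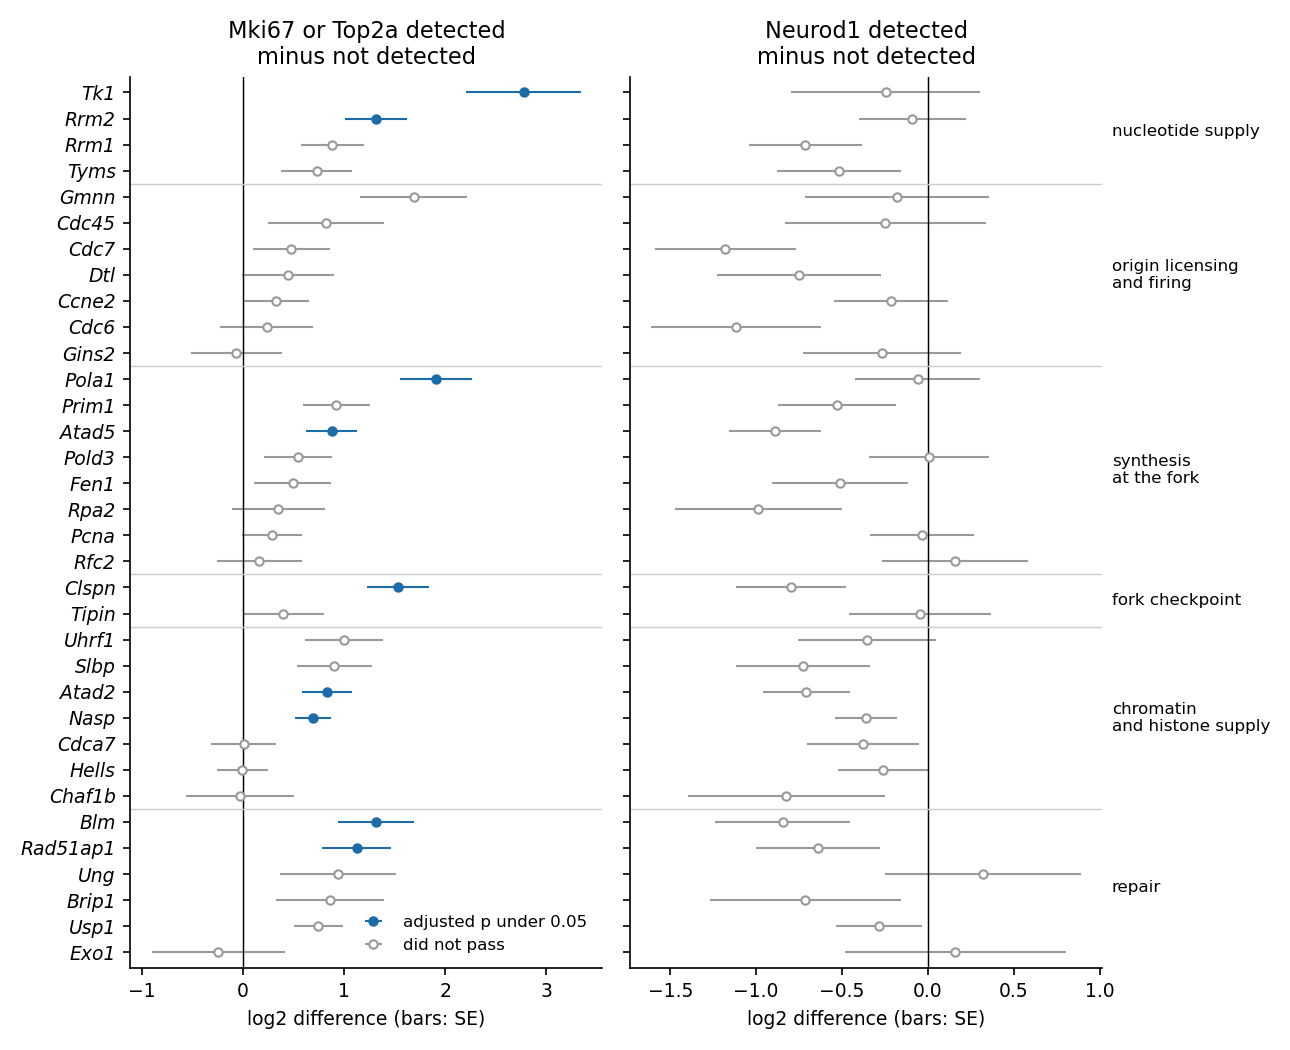
Log2 difference of each member between barcodes with and without Mki67 or Top2a (left) and with and without Neurod1 (right), grouped by role. Bars are SEs derived from edgeR's F statistic over 12 sums in 3 tumours, and filled points passed at an edgeR adjusted p under 0.05. The 9 filled points lie on the left, from Nasp at 0.69 to Tk1 at 2.78, and none on the right.

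The count of 9 moved with how the classes were set, with single libraries and with the tumour term, and why was not tested. Classes set by 200 drawn counts held 563 barcodes with Mki67 or Top2a over the 3 tumours, against 778 in the main split. With classes set by detection among 200 drawn counts and all counts summed, an alternative added after seeing the data, only 2 members passed, Tk1 (log2 difference 2.11, adjusted p = 0.0118) and Clspn (1.30, adjusted p = 0.0136), and Pola1 missed (1.26, adjusted p = 0.0525); the median of all genes shifted to -0.24 there and that of the members to 0.40. Without tumour 1, 2 members passed, without tumour 3, 1 passed, and without tumour 2, 11 passed. Without the tumour term, 3 passed. The counts over all genes moved too and are given in the last section, as a range where 1 tumour was left out. Over 16 alternatives Clspn passed in 14 and Pola1 in 13, Tk1 in 12 of the 14 in which it was tested, and the other 6 in 6 to 9; the log2 difference stayed above 0 for these 9 genes wherever they were tested.

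Markers of other cell types differed between the classes too. Barcodes called for another cell type made up 11, 4 and 10 of those with Mki67 or Top2a and 49, 5 and 19 of those without. When all of them were left out, 10 members passed. The count over all genes in that setting is not given here, so the 10 are not set against a background. Myeloid markers summed to 5.04, 35.2 and 7.0 per 10000 with Mki67 or Top2a, against 6.51, 8.90 and 8.81 without. Astrocyte markers summed to 9.14, 6.6 and 7.24 against 17.3, 5.51 and 7.88, and oligodendrocyte lineage markers to 3.05, 2.20 and 3.68 against 7.87, 23.3 and 4.62. Granule neuron markers summed to 15.3, 19.4 and 19.0 against 34.2, 30.9 and 42.1. Mitochondrial counts made up 5.88%, 9.94% and 5.99% against 5.48%, 12.2% and 6.53%. The members were also refitted at 10% mitochondrial counts or less. The part of markers and mitochondrial counts in single members' differences was not tested beyond these refits.

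Other lists of the pathway were read from the same test. Of 51 further replication and repair genes, 43 were tested and 5 rose with Mki67 or Top2a, with a median log2 difference of 0.56. They included Lig1, which seals Okazaki fragments (0.90, SE 0.23, edgeR adjusted p = 0.00761), Topbp1, which activates ATR (1.34, SE 0.38, edgeR adjusted p = 0.0222), and Brca1 (1.62, SE 0.48, edgeR adjusted p = 0.0341). Of the 6 MCM genes, Mcm7 passed as higher, at 1.29 with an edgeR adjusted p of 2.12e-05, and the other 5 stayed below the threshold. Of 31 mitosis genes, 28 rose, with a median of 2.12, among them Cenpf (2.18), Casc5 (2.78) and Prc1 (2.42). Of 16 neuronal genes, 10 fell, with a median of -0.86, among them Cntn2 (-1.49), Map2 (-0.94) and Apc2 (-2.10).

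None of the 34 members passed between barcodes with and without Neurod1. With edgeR 9 of 34 members had an unadjusted p under 0.05, against 589 of all 7308 genes. DESeq2 and limma-voom also called 0 members. Of all 7308 genes, 31 passed as higher (0.424%) and 14 as lower (0.192%) with Neurod1. The log2 difference was below 0 for 30 of 34 members, with a median of -0.37 against -0.04 over all genes. In 8 members, Cdc7, Cdc6, Atad5, Blm, Chaf1b, Clspn, Rad51ap1 and Fen1, every tumour's CPM with Neurod1 lay below every tumour's CPM without, as it did in 4.99% of all genes tested. In tumour 2 these values with Neurod1 rest on 0 counts (Cdc6, Blm, Chaf1b and Clspn) or 1 count (the other 4), and a count of 0 there allows up to 156 CPM, so the separation of these 8 is weak.

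Atad5 came nearest to passing. It had 191, 51.8 and 192 CPM in barcodes with Neurod1 of tumours 1, 2 and 3, against 376, 259 and 330 CPM in those without. Each tumour was lower with Neurod1, and the log2 difference was -0.89 (SE 0.27, edgeR adjusted p = 0.0918). It passed when barcodes called for another cell type were left out (-0.99, adjusted p = 0.0293) and without tumour 2 (-0.82, adjusted p = 0.0426). Cdc7, which phosphorylates the loaded MCM ring to fire an origin, had 59.2, 51.8 and 61.8 CPM against 153, 259 and 106 CPM, a log2 difference of -1.18 (SE 0.41, edgeR adjusted p = 0.230). Cdc6 had -1.12 (SE 0.49) and Rpa2, a subunit of the single-strand binding protein RPA, -0.99 (SE 0.49).

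The 9 genes that passed with Mki67 or Top2a all had log2 differences below 0 in the Neurod1 split, as did 30 of all 34 members and 3911 of 7308 genes tested. Whether the values of the 9 genes differ from each other was not tested. Pola1 had -0.06 (SE 0.36), Rrm2 -0.09 (SE 0.31), Tk1 -0.25 (SE 0.55) and Nasp -0.36 (SE 0.18). Blm had -0.85 (SE 0.39), Clspn -0.80 (SE 0.32), Atad2 -0.71 (SE 0.26) and Rad51ap1 -0.64 (SE 0.36), and Atad5 is given above. Pcna had -0.03 and Hells -0.26. The 2 differences come from the same 12 sums, so they are set side by side without a test. Granule neuron markers, among them Neurod1 itself, summed to 64.4, 48.2 and 65.4 per 10000 with Neurod1, against 8.69, 8.88 and 9.42 without. Myeloid markers summed to 4.34, 38.4 and 4.2 against 6.72, 9.99 and 10.7.

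In the other lists, 0 of 43 further replication and repair genes passed with Neurod1. At an unadjusted p under 0.05 in edgeR there were 5 of these 43, against 589 of all 7308 genes. Lig1 had -0.86 (edgeR adjusted p = 0.0587). Among the MCM genes 3 of 6 fell, Mcm3 (-1.30, edgeR adjusted p = 0.0126), Mcm6 (-1.24, edgeR adjusted p = 0.0146) and Mcm2 (-1.73, edgeR adjusted p = 0.0466). None of 31 mitosis genes passed (8 at an unadjusted p under 0.05 in edgeR, against the same 589 of 7308). Of 16 neuronal genes 8 rose, among them Cntn2 (1.46), Celf4 (1.52) and Map1b (0.89). Whether the members differ from the MCM genes in this split was not tested.

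The difference between barcodes with and without Mki67 or Top2a was also compared between those with and without Neurod1. The interaction passed for 0 of 34 members and 1 of 7308 genes (0.0137%) in edgeR. Cdca7 was the only member with an unadjusted p under 0.05 (1.77, SE 0.68, edgeR adjusted p = 0.9997), against 258 of all 7308 genes. Within barcodes without Neurod1, Pola1 (2.17, edgeR adjusted p = 0.00138) and Clspn (1.40, edgeR adjusted p = 0.0344) were the 2 of 34 members that passed as higher with Mki67 or Top2a, where 50 of 7308 genes did (0.684%). Within barcodes with Neurod1, 1 of 34 members passed as higher, where 39 of 7308 genes did (0.534%). It was Tk1, with 7, 1 and 6 counts in tumours 1, 2 and 3 with Mki67 or Top2a and 0, 0 and 1 counts without (edgeR adjusted p = 0.0172), too few for a fold. The interaction terms of Pola1 and Clspn were -0.61 and 0.45 with SEs of 0.77 and 0.68, so a difference between barcodes with and without Neurod1 was not detectable at this depth. For the summed members, the ratio with to without Mki67 or Top2a was 1.60, 1.27 and 1.44 where Neurod1 was absent and 2.07, 1.43 and 2.10 where it was present.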

How the data were processed

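Drop-seq libraries of 3 treated tumours, prepared after papain dissociation per the labels' protocols, were analysed from deposited tables of UMI counts per gene and barcode. The submitters' processing notes name STAR, Cell Ranger and the build GRCh38 without versions or roles. However, 18566 of 19744 symbols (94.0%) matched mouse names, so no coordinates of the tables were used. Every barcode held at least 50 genes. Columns of other samples numbered 0.

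Barcodes of at least 200 counts were split by Neurod1 and by Mki67 or Top2a, and raw counts were summed into 4 classes per tumour, 12 sums in all. Genes with at least 20 counts over the sums were tested, leaving out the 3 that define the classes, with edgeR 4.0.16 (TMM, quasi-likelihood, R 4.3.3) on both splits and tumour, with 7 residual degrees of freedom. DESeq2 1.42.0, limma 3.58.1 (voom), other filters and leaving out each tumour were alternatives. Tumour was a block because all classes of a tumour come from 1 mouse. Deviations from class means correlated at a median of 0.234, 0.107 and 0.172 within tumours 1, 2 and 3 (1901 genes). Between tumours the median was -0.075. Subtracting class means over the same 3 tumours pulls that value below 0, so it carries no separate information. The script was tested on simulated counts. No doublet caller was run and no cell annotation was used. A barcode was called for a cell type from at least 3 UMIs of 2 of its markers. Thinning drew 200 counts per barcode at random without replacement. Intervals are exact Poisson or binomial at the 95% level. SEs of log2 differences were derived as the absolute log2 difference over the square root of edgeR's quasi-likelihood F statistic. The members' p-values nearly equal those of a normal distribution at the log2 difference over its SE. The spread in the test was thus pooled over genes, and a single gene's own spread over tumours had little weight. A count of 0 allows up to 3 counts of the total. With 148 barcodes of at least 200 counts, tumour 2 gives CPM values in steps of 42.4 or 44.0 in the split by Mki67 or Top2a.

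The members and lists were chosen with earlier results of these data known. All members could be named; those that passed in a contrast and the 6 of highest mean level were given by tumour, and from each other list the 3 genes of smallest p in a contrast. Gmnn and Cdc7 were also given by tumour, chosen after their values were seen.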

Additional observations from a re-analysis of the deposited data

How the results depend on the processing

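The log2 differences of the 9 members that passed kept their sign in each alternative that tested them (14 of 16 for Tk1, 16 for the other 8); among members that did not pass, some changed sign, such as Pcna with Mki67 or Top2a (-0.04 with classes by 200 drawn counts) and Rrm1 (lowest value -0.27). The 9 members called higher with Mki67 or Top2a became 5 with no filter on low counts, 3 with no replicate block, 4 with limma-voom, 4 with DESeq2, 2 with classes by 200 drawn counts and 0 of 30 tested with every barcode thinned to 200 counts, where fewer counts remain; leaving out 1 tumour gave 1 to 11. Genes higher (123) became 68 with no replicate block, 29 thinned, 73 with DESeq2, 62 with drawn classes and 31 to 152 without 1 tumour. Genes lower (61) became 15 with no replicate block, 21 thinned, 31 at 300 counts per barcode, 27 with limma-voom, 20 with DESeq2 and 2 to 78 without 1 tumour. With Neurod1, members called lower (0) became 1 without barcodes of another cell type and 0 to 1 without 1 tumour. Genes higher with Neurod1 (31) became 3 with no replicate block, 0 thinned, 47 with 2 sums per tumour, 19 with limma-voom, 10 with drawn classes and 1 to 70 without 1 tumour. Genes lower (14) became 0 with no replicate block, 9 thinned, 3 at 100 counts per barcode, 7 at 10% mitochondrial counts or less, 3 with limma-voom, 6 with DESeq2, 22 with drawn classes and 1 to 27 without 1 tumour. The interaction's 1 gene became 0 thinned and 0 to 1 without 1 tumour. The causes were not tested beyond the loss of counts or samples. Members per 10000 (44.2) became 47.5 without mitochondrial genes in the total and 48.0 in barcodes of at least 200 counts, and the share difference (22.8 points) became 15.6 at 300 counts. There the shares in tumours 1, 2 and 3 were 77.7%, 72.7% and 82.5% with Mki67 or Top2a, against 58.1%, 68.4% and 59.5% without. Tumour 2 had only 22 and 19 barcodes in that setting. Leaving out a tumour from the main values gave 43.2 to 46.1 per 10000 and 20.5 to 24.2 points. Thinning moved the median log2 difference of all genes to -0.27 with Mki67 or Top2a and -0.29 with Neurod1, where the members had 0.34 and -0.78. Depth limits what can be seen in tumour 2, which holds 200 member counts in barcodes of at least 200 counts.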
